A study of Mus musculus with 22 samples.

Results

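Hypoxia and glycolysis genes were followed across 5 treatment groups of EMT6 mouse mammary tumours, in the CD45-negative and the CD45-positive cells of the tumours. The set holds 35 named genes: the HIF alpha subunits, their prolyl hydroxylases, genes that respond to low oxygen, and the enzymes and transporters of glycolysis. They were chosen by name. The tables write them in capitals (ADM, NDRG1, P4HA2, ENO3, HK2 and so on), and 34 of the 35 were found in both expression tables among 24353 listed symbols. The remaining name, CA9, is listed under the mouse symbol Car9, and its values are given separately and are not counted among the 34. EMT6 cells, an established BALB/c mammary carcinoma line, had been injected into the left and the right inguinal fat pad of BALB/c mice, 200000 cells per site, at an age of 5 to 6 weeks. The treated groups all received JQ1, an inhibitor of BET bromodomain proteins, daily by gavage at 50 mg/kg. They received it alone, with an antibody to PD-L1, with the taxane paclitaxel, or with both, and the control group received vehicle. The antibody and paclitaxel were each given at 10 mg/kg, 2 times a week. No group received paclitaxel or the antibody without JQ1. The CD45-negative fraction had 3 libraries in each group with paclitaxel and 2 in each of the other groups. The CD45-positive fraction had 2 libraries in each group. Where paclitaxel was not given, both tumours of a group carry 1 code with R or L, read here as the right and the left tumour of 1 mouse. All groups of a fraction share 1 estimate of spread, which mixes tumours of 1 mouse with tumours of different mice. In every comparison p-values therefore measure the spread between tumours and not between animals alone. Vehicle is 1 mouse by this reading, so a difference from vehicle cannot be told apart from a difference of that mouse. The same holds for the other groups of 1 mouse.

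Under low oxygen the prolyl hydroxylases, which include Egln1 and Egln3, lose activity, and the alpha subunits Hif1a and Epas1 then accumulate as proteins and switch on genes for glucose uptake, glycolysis, vessel growth and pH control. Hif1a is regulated mainly at the protein level, so its mRNA does not report its activity. Glycolysis turns glucose into pyruvate, which lactate dehydrogenase converts to lactate, and tumour cells often run this route strongly even with oxygen present.

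Values are FPKM, fragments scaled to gene length and library size. Relative sequencing depth, read from the steps of the lowest values, ranged from 0.547 to 1.79 among CD45-negative libraries. It ranged from 0.629 to 1.72 among CD45-positive libraries, and both CD45-negative JQ1 libraries (0.554 and 0.653) were shallower than the vehicle ones (1.79 and 1.13). Summed FPKM of 12 pan-leukocyte markers was 211 to 701 in CD45-negative libraries, beside 2882 to 4775 in CD45-positive ones, so the former also held leukocyte transcripts. Summed FPKM of 7 epithelial markers was 298 to 889 and 12.4 to 91.2. The CD45-negative cells are therefore a mixture, and in such bulk samples fewer cells of a type and less RNA per cell cannot be told apart.

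HIF proteins bind the cores ACGTG and GCGTG, and the promoters of the genes were searched for both. RefSeq promoters (GRCm38.p6, 250 bases before to 50 after each start) were at hand for 30 of the 34 genes. ACGTG, on either strand, was found in at least 1 promoter of 20 of the 30 genes (66.7%), against 21.8% of 27025 genes with a promoter in the table and 29.9% of the 8226 of them tested in the CD45-negative fraction. Counted by promoter, 23 of 45 (51.1%) held it, against 19.6% of 32851 promoters of the same length. The E-box CACGTG, which contains ACGTG, was found in 5 of these genes and in 8.09% of all genes and 11.8% of the tested ones. With GCGTG accepted as well, the count was 28 of 30 (93.3%), against 46.7% of all genes and 68.9% of the tested ones. A match is a description of the letters and no evidence of binding. The 250 bases before the start are shown for 5 genes whose expression rose with the antibody and whose upstream sequence holds the core, and for Adm, which rose with the antibody and holds no ACGTG but 2 matches of GCGTG in its promoter. Capitals mark ACGTG or its reverse complement CACGT, matches of GCGTG are not marked, and all are written 5′ to 3′ on the strand of the gene.
P4ha2: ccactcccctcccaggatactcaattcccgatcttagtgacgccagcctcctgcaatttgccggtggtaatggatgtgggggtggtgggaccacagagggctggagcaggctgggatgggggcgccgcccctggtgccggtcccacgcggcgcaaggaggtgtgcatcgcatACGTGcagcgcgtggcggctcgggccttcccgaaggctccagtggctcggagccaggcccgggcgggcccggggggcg
Slc16a3: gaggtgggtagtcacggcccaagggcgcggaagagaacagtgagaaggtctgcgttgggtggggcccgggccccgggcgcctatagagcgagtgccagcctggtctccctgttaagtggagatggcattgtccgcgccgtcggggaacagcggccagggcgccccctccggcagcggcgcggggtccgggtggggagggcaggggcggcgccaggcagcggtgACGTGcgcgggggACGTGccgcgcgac
Hk2: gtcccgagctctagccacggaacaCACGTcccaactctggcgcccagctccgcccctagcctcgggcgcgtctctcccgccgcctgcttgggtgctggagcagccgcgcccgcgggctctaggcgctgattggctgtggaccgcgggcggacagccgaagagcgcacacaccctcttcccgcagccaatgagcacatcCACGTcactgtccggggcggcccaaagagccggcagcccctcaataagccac
Ankrd37: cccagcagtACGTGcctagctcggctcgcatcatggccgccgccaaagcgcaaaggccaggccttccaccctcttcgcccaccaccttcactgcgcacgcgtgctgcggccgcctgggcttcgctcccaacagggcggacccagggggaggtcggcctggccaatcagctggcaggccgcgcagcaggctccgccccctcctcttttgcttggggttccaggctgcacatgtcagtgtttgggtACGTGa
Egln3: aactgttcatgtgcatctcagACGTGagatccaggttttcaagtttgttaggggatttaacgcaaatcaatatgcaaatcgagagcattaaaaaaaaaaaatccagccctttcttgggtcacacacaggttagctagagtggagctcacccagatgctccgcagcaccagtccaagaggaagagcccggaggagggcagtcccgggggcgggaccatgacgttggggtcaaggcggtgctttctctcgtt
Adm: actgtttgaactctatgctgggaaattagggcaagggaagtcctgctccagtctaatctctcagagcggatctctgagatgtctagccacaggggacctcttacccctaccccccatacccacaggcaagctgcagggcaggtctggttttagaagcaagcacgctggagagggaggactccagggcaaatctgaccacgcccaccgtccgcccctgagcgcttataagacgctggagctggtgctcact
P4ha2 lies on the plus strand (chr11:54100674-54100923), as do Slc16a3 (chr11:120948817-120949066) and Adm (chr7:110627407-110627656). Hk2 (chr6:82774455-82774704), Ankrd37 (chr8:45999851-46000100) and Egln3 (chr12:54203875-54204124) lie on the minus strand. Hk2, Slc16a3 and Ankrd37 each hold the core at 2 upstream positions, P4ha2 and Egln3 at 1. Among the 10 genes that rose with the antibody and have a promoter in the table, 7 hold ACGTG, and among the other 20 genes 13 do.

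In the CD45-negative cells, the most genes passed the test where anti-PD-L1 was added to JQ1 treatment and where JQ1 was given with paclitaxel. The antibody comparison sets the mean of the groups with JQ1 and anti-PD-L1, with or without paclitaxel, against the mean of the JQ1 groups without the antibody. Of 33 tested genes 12 passed the limma test at a Benjamini-Hochberg adjusted p under 0.05, 11 of them higher and 1, Epas1, lower. Among all 10780 tested genes the share called was 25%, with 14% higher and 10.9% lower. The median log2 difference of the 33 genes was 0.22, and that of all tested genes 0.03. Slc2a3, the gene without a test here, was under the low-value filter at 0.0612 to 1.18 FPKM.

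JQ1 with paclitaxel against vehicle gave 10 calls of 33, 9 of them lower and 1 (Epas1) higher, where 17.6% of all tested genes were called, 12.3% lower and 5.29% higher. JQ1 alone against vehicle gave 4 of 33, all lower (Aldoc, Eno3, Egln3 and Egln1), a share of 12.1% beside 14.8% of all genes, of which 9.68% lower, so the count sat near the background. The median of the 33 genes was -0.28 for JQ1 and -0.27 for JQ1 with paclitaxel, beside -0.05 and -0.07 over all tested genes. Against vehicle, all 3 drugs gave 1 call (Aldoc lower, background 1.63%, of which 1.05% lower). JQ1 with anti-PD-L1 gave none by limma (background 0.25%). At an unadjusted p under 0.05 it gave 3 of the 33 genes, beside 14.4% of all tested genes. Adding paclitaxel gave 1 call (Eno3 lower, background 3.56%, of which 1.37% lower). The interaction of paclitaxel and antibody gave none by limma (background 0.00928%). At an unadjusted p under 0.05 it gave 3 of the 33 genes, beside 7.15% of all tested genes. These comparisons share libraries: the JQ1 groups that are treated against vehicle serve as the reference when a drug is added.

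**Figure D1:**
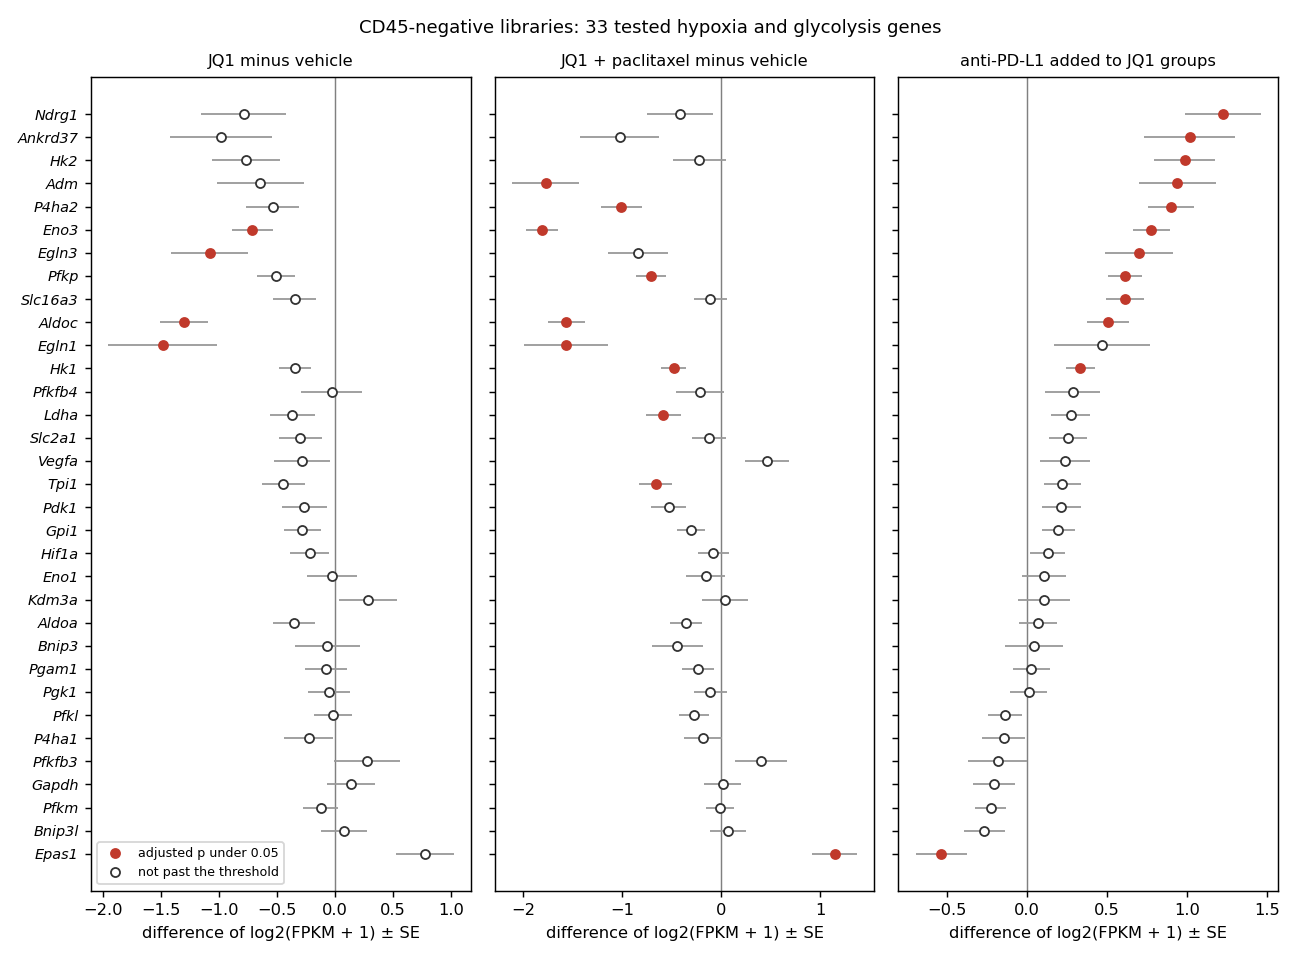
Differences of log2(FPKM + 1) with their standard errors (x axis) for the 33 tested genes (y axis) in the CD45-negative libraries, for JQ1 minus vehicle, JQ1 with paclitaxel minus vehicle, and anti-PD-L1 added to the JQ1 groups; filled red points passed an adjusted p under 0.05 and open points did not. Filled points lie left of 0 in the panels against vehicle, except Epas1 at 1.15, and right of 0 in the antibody panel, except Epas1 at -0.54.

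Averaging tumours by mouse code, with groups of 1 mouse assumed to vary like the others, left 3 of the 12 antibody calls (P4ha2, Pfkp and Eno3), 2 of the 10 calls for JQ1 with paclitaxel (Eno3 and Aldoc) and none of the 4 for JQ1. Without vehicle replicate 2 the counts were 3 for JQ1 with paclitaxel and 1 for JQ1, and without replicate 2 of JQ1 with anti-PD-L1 the antibody count was 6. With relative depth as a covariate the JQ1 count was 1.

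The HIF alpha subunits differed from each other in level and in response. Hif1a, the widely expressed subunit, read 41.2 and 39.2 FPKM with vehicle, 35.3 and 33.7 with JQ1, 37.7 and 45.3 with JQ1 and anti-PD-L1, 37.6, 34.4 and 42.1 with JQ1 and paclitaxel, and 41.5, 41.5 and 31.9 with all 3 drugs. It was among the steadiest of the genes, with a coefficient of variation of 10.5% over the 12 libraries, and passed no test. Epas1 encodes HIF-2 alpha, which is prominent in endothelial cells. It read 0.299 and 0.129 FPKM with vehicle, 1.14 and 1.01 with JQ1, 0.912 and 0.718 with JQ1 and anti-PD-L1, 2.37, 1.36 and 1.41 with JQ1 and paclitaxel, and 0.224, 0.353 and 0.861 with all 3 drugs. These are low levels, with the highest values in libraries with JQ1 and paclitaxel and the lowest in a vehicle library, and libraries with the antibody lay below the JQ1 libraries without it with no overlap. Epas1 reached 1 FPKM, the level of the low-value filter, only in libraries with JQ1 alone or with JQ1 and paclitaxel. It was therefore tested only because of the groups where it was high, which limits what its calls can show. On the log2(FPKM + 1) scale, which understates changes of such low genes, Epas1 rose with JQ1 and paclitaxel by 1.15 ± 0.23 (SE, adjusted p = 0.00538), a call lost without vehicle replicate 2 (1.04), and changed with the antibody by -0.54 ± 0.16 (SE, adjusted p = 0.0274), a call lost in 7 of 12 fits that each left out 1 library (-0.62 to -0.45). Summed endothelial markers read 7.47 to 13.5 FPKM with vehicle, 14.0 to 21.8 with JQ1, 13.3 to 20.3 with JQ1 and anti-PD-L1, 12.0 to 39.9 with JQ1 and paclitaxel, and 10.4 to 34.3 with all 3 drugs. In the JQ1 with paclitaxel comparison 1 of 8 tested endothelial markers rose, beside 5.29% of all tested genes. The part of endothelial cells in the Epas1 difference was not tested.

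Both prolyl hydroxylases fell with JQ1. Egln3, itself a strong target of HIF, read 12.8 and 11.7 FPKM with vehicle, 4.23 and 6.51 with JQ1, 5.25 and 10.5 with JQ1 and anti-PD-L1, 8.81, 5.87 and 4.94 with JQ1 and paclitaxel, and 16.1, 9.38 and 15.9 with all 3 drugs. Vehicle libraries lay above both JQ1 libraries, and 2 of the 3 libraries with all 3 drugs lay above vehicle. Egln3 fell with JQ1 by 1.08 ± 0.33 (SE, adjusted p = 0.0458), a call lost in 7 of 12 fits that each left out 1 library (-1.34 to -0.82), and rose with the antibody by 0.70 ± 0.21 (SE, adjusted p = 0.0305), a call lost in 6 of 12 fits that each left out 1 library (0.48 to 0.92). Egln1, the main oxygen-sensing hydroxylase for HIF-1 alpha, read 8.88 and 30.98 FPKM with vehicle, 4.52 and 6.32 with JQ1, 7.25 and 11.5 with JQ1 and anti-PD-L1, 5.75, 3.39 and 6.21 with JQ1 and paclitaxel, and 9.70, 5.25 and 4.53 with all 3 drugs. A single library, vehicle replicate 2, stands far above the rest. The Egln1 difference was -1.48 ± 0.47 (SE, adjusted p = 0.0497) for JQ1 and -1.57 ± 0.43 (SE, adjusted p = 0.0246) for JQ1 with paclitaxel, and without that library it was -0.64 and -0.73, neither past the threshold. The call with JQ1 and paclitaxel was also lost without replicate 2 of that group (-1.35), and the call with JQ1 in 8 of 12 fits that each left out 1 library (-2.33 to -0.64).

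Hypoxia-response genes outside glycolysis gave 4 antibody calls among 9, all higher, where 14% of all tested genes were higher: Ndrg1, Ankrd37, Adm and P4ha2. Ndrg1, a gene of stress and differentiation that responds to hypoxia, read 98.9 and 112 FPKM with vehicle, 53.3 and 69.3 with JQ1, 101 and 139 with JQ1 and anti-PD-L1, 74.3, 46.8 and 139.8 with JQ1 and paclitaxel, and 187, 239 and 250.2 with all 3 drugs. The 3-drug libraries lay above every other library, and libraries with JQ1 alone were among the lowest. Its antibody difference was 1.22 ± 0.24 (SE, adjusted p = 0.00307), the largest of the 33. Against vehicle it was -0.79 ± 0.37 (SE, adjusted p = 0.165) for JQ1 and 1.08 ± 0.33 (SE, adjusted p = 0.107) for all 3 drugs, neither past the threshold.

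Adm, which encodes the vasodilator peptide adrenomedullin, read 75.8 and 58.3 FPKM with vehicle, 37.95 and 47.1 with JQ1, 43.1 and 91.1 with JQ1 and anti-PD-L1, 27.9, 16.7 and 13.96 with JQ1 and paclitaxel, and 69.5, 38.7 and 41.5 with all 3 drugs. The lowest values were those of JQ1 with paclitaxel, with no overlap with vehicle or with the 3-drug group. Adm fell by 1.77 ± 0.34 (SE, adjusted p = 0.0045) with JQ1 and paclitaxel and rose by 0.94 ± 0.24 (SE, adjusted p = 0.0136) with the antibody, a call lost without JQ1-alone replicate 1 (0.86) or JQ1-antibody replicate 2 (0.67). P4ha2, a prolyl 4-hydroxylase subunit that matures collagen, read 38.3 and 47.4 FPKM with vehicle, 29.8 and 28.3 with JQ1, 37.3 and 49.3 with JQ1 and anti-PD-L1, 26.3, 18.4 and 18.1 with JQ1 and paclitaxel, and 56.5, 40.4 and 56.8 with all 3 drugs. All libraries with the antibody lay above all JQ1 libraries without it, and the vehicle values lay within the range with the antibody. P4ha2 fell by 1.01 ± 0.21 (SE, adjusted p = 0.00654) with JQ1 and paclitaxel, a call lost without vehicle replicate 2 (-0.86), and rose by 0.90 ± 0.15 (SE, adjusted p = 0.00123) with the antibody. The paralog P4ha1 was not called, at -0.15 ± 0.14 (SE, adjusted p = 0.458) for the antibody.

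Ankrd37, an ankyrin-repeat gene induced by HIF, read 28 and 19.8 FPKM with vehicle, 8.17 and 15.9 with JQ1, 15.6 and 39.1 with JQ1 and anti-PD-L1, 17.4, 9.69 and 7.86 with JQ1 and paclitaxel, and 29.8, 16.4 and 24.4 with all 3 drugs. The right and left tumours with JQ1 and anti-PD-L1 lay far apart. Its antibody difference was 1.02 ± 0.28 (SE, adjusted p = 0.0205), a call lost without JQ1-alone replicate 1 (0.80) or JQ1-antibody replicate 2 (0.70). Vegfa, the vascular growth factor and the most abundant gene of this group in the CD45-negative cells, read 165 and 114 FPKM with vehicle, 119.5 and 106 with JQ1, 134 and 199 with JQ1 and anti-PD-L1, 194, 162 and 216 with JQ1 and paclitaxel, and 170.3, 224 and 158 with all 3 drugs. Both libraries with JQ1 alone lay below every library with a further drug, and the other groups overlapped. Vegfa passed no test, with 0.24 ± 0.16 (SE, adjusted p = 0.281) for the antibody and 0.46 ± 0.22 (SE, adjusted p = 0.166) for JQ1 with paclitaxel. Bnip3 and Bnip3l, which act in mitophagy, and the histone demethylase Kdm3a were also not called, at 78.2 to 161, 32.9 to 54.8 and 4.16 to 9.25 FPKM. Car9, the membrane carbonic anhydrase that acidifies the surroundings of hypoxic cells, read 42.1 and 28.4 FPKM with vehicle, 20.4 and 22.9 with JQ1, 19.97 and 28.6 with JQ1 and anti-PD-L1, 26.7, 21.1 and 26.2 with JQ1 and paclitaxel, and 40.1, 37.1 and 40.9 with all 3 drugs. The values with 3 drugs lay above those of the other treated groups. Car9 rose with the antibody by 0.40 ± 0.14 (SE, adjusted p = 0.0494), a call lost in 9 of 12 fits that each left out 1 library (0.27 to 0.52).

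**Figure D2:**
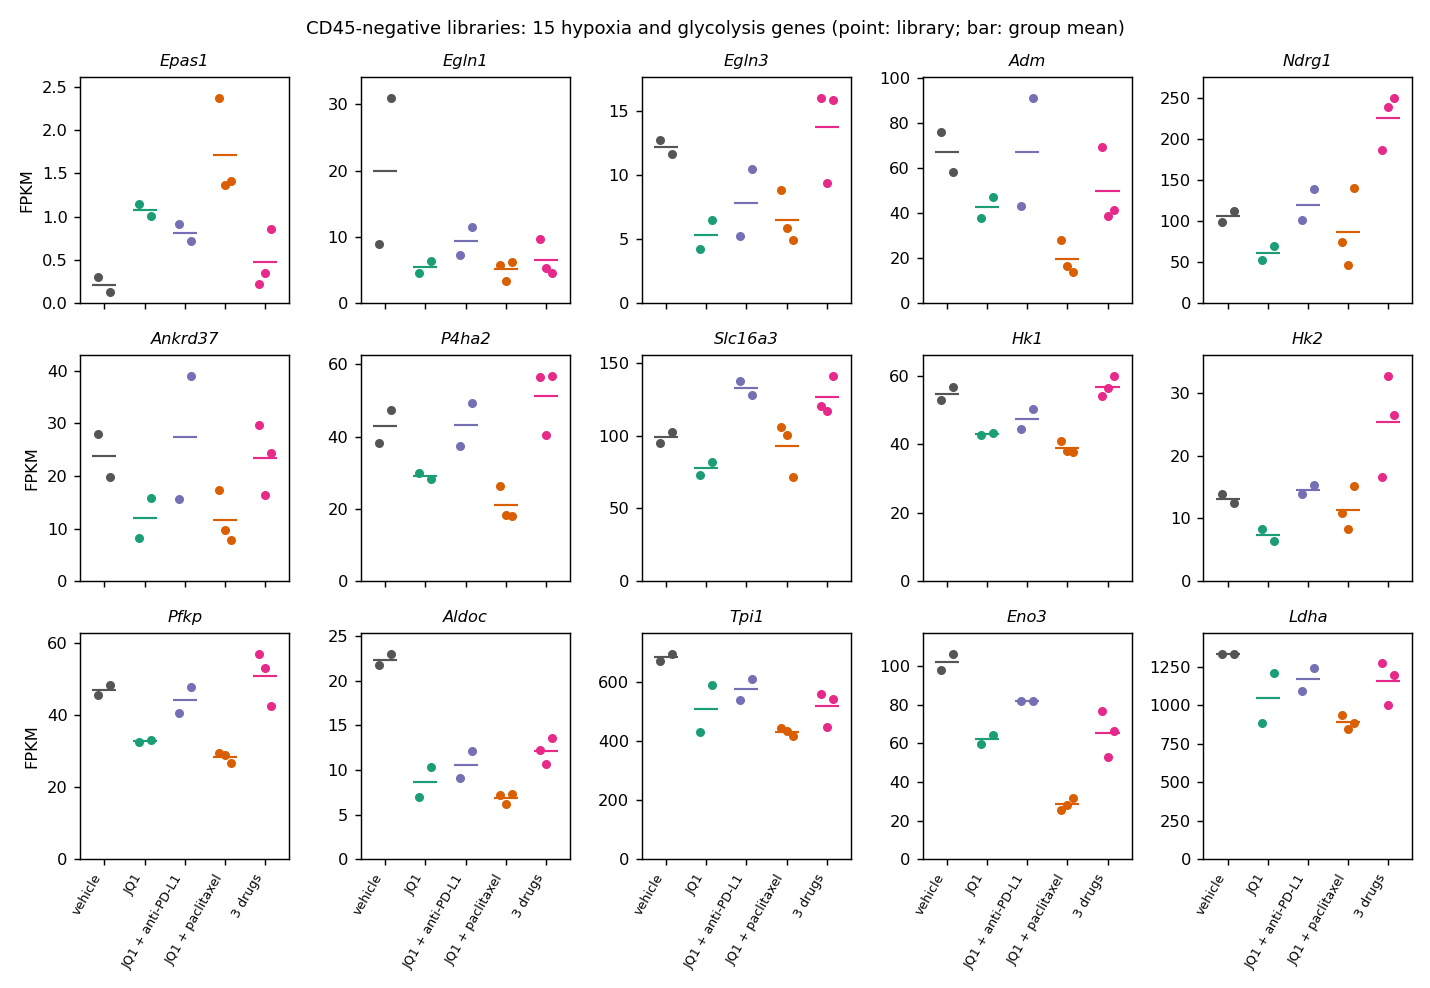
FPKM (y axis, from 0) of the 15 genes called in at least 1 CD45-negative comparison, by treatment group (x axis); points are libraries (2 or 3 per group) and bars are group means. P4ha2, Slc16a3, Hk1 and Pfkp in the antibody groups lie above the JQ1 groups without it, and Eno3 is lowest with JQ1 and paclitaxel at 25.6 to 31.8 FPKM.

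Of the transporters, Slc16a3, the exporter of lactate known as MCT4, rose with the antibody. It read 94.9 and 103 FPKM with vehicle, 73.2 and 82.05 with JQ1, 138 and 128 with JQ1 and anti-PD-L1, 106, 100.3 and 71.8 with JQ1 and paclitaxel, and 121, 117 and 141 with all 3 drugs. Every library with the antibody lay above every other CD45-negative library, vehicle included. The antibody difference was 0.61 ± 0.12 (SE, adjusted p = 0.00343). Slc2a1, the glucose importer GLUT1, read 185 and 192 FPKM with vehicle, 133 and 176 with JQ1, 165 and 198 with JQ1 and anti-PD-L1, 181, 143 and 197 with JQ1 and paclitaxel, and 203, 209 and 213 with all 3 drugs. The 3-drug libraries lay above every other library and both JQ1 libraries lay below vehicle. Its antibody difference was 0.26 ± 0.12 (SE, adjusted p = 0.134).

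The first steps of glycolysis gave 3 antibody calls among 6 enzymes, all higher, where 14% of all tested genes were higher: Hk1, Hk2 and Pfkp. Hk2, the hexokinase that tumours often induce, read 13.8 and 12.4 FPKM with vehicle, 8.38 and 6.41 with JQ1, 13.9 and 15.3 with JQ1 and anti-PD-L1, 10.8, 8.29 and 15.1 with JQ1 and paclitaxel, and 16.6, 32.7 and 26.5 with all 3 drugs. Its lowest library had JQ1 alone and its highest had all 3 drugs. The antibody difference was 0.99 ± 0.19 (SE, adjusted p = 0.00293). Hk1, the constitutive hexokinase, read 52.96 and 56.7 FPKM with vehicle, 42.7 and 43.4 with JQ1, 44.5 and 50.4 with JQ1 and anti-PD-L1, 41.1, 38.1 and 37.7 with JQ1 and paclitaxel, and 54.1, 56.4 and 60.1 with all 3 drugs. The spread within groups was small, and libraries with the antibody did not overlap with the JQ1 libraries without it. Hk1 rose by 0.33 ± 0.09 (SE, adjusted p = 0.0166) with the antibody, a call lost without JQ1-antibody replicate 2 (0.29), and fell by 0.48 ± 0.13 (SE, adjusted p = 0.0215) with JQ1 and paclitaxel, a call lost without vehicle replicate 1 (-0.53), vehicle replicate 2 (-0.43) or JQ1-paclitaxel replicate 2 (-0.47).

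Pfkp, the platelet-type phosphofructokinase, read 45.7 and 48.5 FPKM with vehicle, 32.6 and 33.2 with JQ1, 40.8 and 48.02 with JQ1 and anti-PD-L1, 29.6, 28.9 and 26.8 with JQ1 and paclitaxel, and 57.2, 53.1 and 42.6 with all 3 drugs. It was low in all libraries with JQ1 or with JQ1 and paclitaxel, and the other 3 groups shared a higher range. Pfkp rose by 0.61 ± 0.11 (SE, adjusted p = 0.00165) with the antibody and fell by 0.71 ± 0.15 (SE, adjusted p = 0.00747) with JQ1 and paclitaxel, a call lost without vehicle replicate 2 (-0.67). The isozymes Pfkl and Pfkm were not called, at -0.14 ± 0.11 (SE, adjusted p = 0.372) and -0.23 ± 0.10 (SE, adjusted p = 0.109) for the antibody. Gpi1, which isomerizes glucose 6-phosphate and was the most abundant of these enzymes, read 170.5 and 174 FPKM with vehicle, 129 and 155 with JQ1, 141 and 160.0 with JQ1 and anti-PD-L1, 140.4, 138 and 138 with JQ1 and paclitaxel, and 172, 152 and 195 with all 3 drugs. The highest libraries were in the 3-drug and vehicle groups, and Gpi1 passed no test. Pfkfb3 and Pfkfb4, which set the level of the phosphofructokinase activator, were low, at 1.70 to 3.74 and 0.683 to 2.05 FPKM, and neither was called. Pfkfb3, the more abundant, read 1.88 and 2.03 FPKM with vehicle, 3.74 and 1.70 with JQ1, 1.75 and 2.66 with JQ1 and anti-PD-L1, 3.69, 3.08 and 2.10 with JQ1 and paclitaxel, and 1.92, 2.98 and 2.41 with all 3 drugs. All libraries with JQ1 and paclitaxel lay above vehicle, and the other groups overlapped.

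Among the enzymes from aldolase to enolase, Aldoc and Eno3, which are less abundant than Aldoa and Eno1, gave the most calls. Aldoc, the aldolase best known from brain, read 21.7 and 23.1 FPKM with vehicle, 6.94 and 10.4 with JQ1, 9.08 and 12.1 with JQ1 and anti-PD-L1, 7.19, 6.23 and 7.28 with JQ1 and paclitaxel, and 12.3, 10.7 and 13.6 with all 3 drugs. Both vehicle libraries lay far above all treated libraries. Aldoc fell by 1.30 ± 0.21 (SE, adjusted p = 0.00232) with JQ1, 1.57 ± 0.19 (SE, adjusted p = 0.00031) with JQ1 and paclitaxel and 0.83 ± 0.19 (SE, adjusted p = 0.0491) with all 3 drugs. It rose by 0.51 ± 0.13 (SE, adjusted p = 0.0151) with the antibody, a call lost without JQ1-alone replicate 1 (0.38) or JQ1-antibody replicate 2 (0.41). The call with all 3 drugs was lost under each of 5 other settings and in 10 of 12 fits that each left out 1 library (-0.91 to -0.75). The main aldolase, Aldoa, ranged from 914 to 1349 FPKM, with -0.35 ± 0.18 (SE, adjusted p = 0.207) for JQ1.

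Eno3, the enolase of muscle, read 98.1 and 106 FPKM with vehicle, 59.6 and 64.6 with JQ1, 82.2 and 81.9 with JQ1 and anti-PD-L1, 25.6, 27.9 and 31.8 with JQ1 and paclitaxel, and 76.8, 52.8 and 66.2 with all 3 drugs. Vehicle was highest, and the libraries with JQ1 and paclitaxel formed a separate low group. Eno3 fell by 0.71 ± 0.18 (SE, adjusted p = 0.0205) with JQ1, a call lost without vehicle replicate 1 (-0.77), vehicle replicate 2 (-0.65) or JQ1-alone replicate 1 (-0.65), by 1.81 ± 0.16 (SE, adjusted p = 6.45e-05) with JQ1 and paclitaxel, and by 0.72 ± 0.11 (SE, adjusted p = 0.00995) where paclitaxel was added to the JQ1 groups, a call lost without JQ1-antibody replicate 1 (-0.72). It rose by 0.78 ± 0.11 (SE, adjusted p = 0.000705) with the antibody. Summed FPKM of 7 skeletal muscle markers was 1.66 to 12.1 over all CD45-negative libraries, 1.66 to 4.21 with vehicle and 2.83 to 9.36 with JQ1 and paclitaxel, and their part in the Eno3 difference was not tested. Eno1, the widely expressed enolase, ranged from 219 to 342 FPKM and was not called.

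Tpi1, triose phosphate isomerase, read 672 and 697 FPKM with vehicle, 430.0 and 589 with JQ1, 539.8 and 611 with JQ1 and anti-PD-L1, 444, 436 and 418 with JQ1 and paclitaxel, and 560.4, 449 and 544 with all 3 drugs. Vehicle lay above all treated libraries, and Tpi1 fell by 0.66 ± 0.17 (SE, adjusted p = 0.0181) with JQ1 and paclitaxel, a call lost without vehicle replicate 1 (-0.69) or vehicle replicate 2 (-0.64). Gapdh, the most abundant of the genes, read 2149 and 2093 FPKM with vehicle, 2017 and 2701 with JQ1, 2009 and 2161 with JQ1 and anti-PD-L1, 2027, 2200.0 and 2194 with JQ1 and paclitaxel, and 1869, 1499 and 2081 with all 3 drugs. Its antibody difference was -0.21 ± 0.13 (SE, adjusted p = 0.278), opposite in sign to those of the 11 genes that rose and not past the threshold. Pgk1 had the smallest coefficient of variation of the genes, 9.91%, against 85.2% for Egln1, the largest. Gapdh, Aldoa, Pgk1, Pgam1, Tpi1, Ldha and Eno1 have processed copies in the mouse genome, and their values depend on how shared reads were assigned.

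At the end of the pathway, Ldha, which makes lactate, read 1332 and 1334 FPKM with vehicle, 886 and 1207 with JQ1, 1092 and 1243 with JQ1 and anti-PD-L1, 935, 846 and 886 with JQ1 and paclitaxel, and 1276, 999.7 and 1193 with all 3 drugs. The libraries with JQ1 and paclitaxel lay below vehicle with no overlap, and Ldha fell by 0.59 ± 0.18 (SE, adjusted p = 0.0373), a call lost in 7 of 12 fits that each left out 1 library (-0.62 to -0.55). Pdk1, the kinase that keeps pyruvate out of mitochondria, ranged from 6.71 to 12.8 FPKM and was not called, with -0.53 ± 0.18 (SE, adjusted p = 0.0537) for JQ1 with paclitaxel.

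Other transcripts also differed between the groups, and counts of called markers are to be read beside the share of all tested genes. Of these 14% rose with the antibody. Against vehicle 9.68% fell with JQ1, 12.3% with JQ1 and paclitaxel and 1.05% with all 3 drugs. Summed FPKM of 12 mitotic markers in the CD45-negative fraction was 295 to 302 with vehicle, 171 to 210.3 with JQ1, 269 to 282 with JQ1 and anti-PD-L1, 111 to 133 with JQ1 and paclitaxel, and 152 to 262 with all 3 drugs. With the antibody 5 of 12 mitotic markers rose, with JQ1 and paclitaxel 8 of 12 fell, and with JQ1 alone 3. Neutrophil markers summed to 44.5 to 48.4 with vehicle, 84.8 to 94.3 with JQ1 and anti-PD-L1, 24.9 to 35.7 with all 3 drugs, 26.3 to 46.8 with JQ1 and 17.5 to 23.7 with JQ1 and paclitaxel, and 3 of 9 tested rose with the antibody, while 3 fell with JQ1 and 6 with JQ1 and paclitaxel. Of 13 macrophage and monocyte markers 4 rose with the antibody, of 12 pan-leukocyte markers 2 (near the share of all genes), of 10 fibroblast markers 4 and of 5 epithelial markers 2. Of these fibroblast and epithelial markers, 4 and 3 fell with JQ1, and 2 and 2 with JQ1 and paclitaxel. The part of these cells in the differences above was not tested. Of the 11 genes that rose with the antibody, 7 (Adm, Ankrd37, P4ha2, Slc16a3, Hk1, Aldoc and Eno3) were lower in the CD45-positive than in the CD45-negative cells of every tumour measured in both. The other 4 were lower in some of these tumours. Of all 34 genes 19 were lower in every tumour, so the 11 genes did not stand apart from the set. Erythroid markers summed to 109.8 to 332 FPKM with vehicle, 1.03 to 3.46 with JQ1, 33.3 to 67.5 with JQ1 and anti-PD-L1, 0.707 to 2.27 with JQ1 and paclitaxel, and 0.753 to 5.78 with all 3 drugs. Of 3 tested, 2 fell against vehicle with JQ1, with JQ1 and paclitaxel and with all 3 drugs, and 1 rose with the antibody.

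In some groups many of the genes differed together between tumours, most of all with JQ1 and anti-PD-L1, while both vehicle tumours gave the same count. Of the 33 tested genes, 28 were above their own median over the 12 libraries in the left tumour with JQ1 and anti-PD-L1 and 7 in the right tumour of the same mouse code. With JQ1 alone the counts were 7 and 16, with vehicle 25 and 25, with JQ1 and paclitaxel 13, 4 and 9, and with all 3 drugs 26, 15 and 23. The share of all tested genes above their median in these libraries ranged from 44.1% to 60.9%. With JQ1 and anti-PD-L1 it was 57.25% in the left and 50.04% in the right tumour.

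In the CD45-positive cells, 2 of 34 genes were called, both for JQ1 with paclitaxel against vehicle, where 4.84% of 10340 tested genes were called, 1.58% higher and 3.26% lower. Epas1 read 0.195 and 0.757 FPKM with vehicle, 1.06 and 2.12 with JQ1, 0.832 and 0.752 with JQ1 and anti-PD-L1, 3.11 and 3.33 with JQ1 and paclitaxel, and 0.653 and 0.613 with all 3 drugs. Here too Epas1 reached 1 FPKM only with JQ1 alone or with JQ1 and paclitaxel, so it passed the filter through groups where it was high. Both libraries with JQ1 and paclitaxel lay above all others, and Epas1 rose by 1.54 ± 0.27 (SE, adjusted p = 0.0185). All 10 tested endothelial markers rose in that comparison, and their summed FPKM was 93.8 to 121 with JQ1 and paclitaxel, 41.9 to 42.4 with JQ1 and 6.98 to 11.3 with vehicle; their part in the Epas1 difference was not tested. Eno3 read 13.9 and 9.08 FPKM with vehicle, 2.58 and 3.42 with JQ1, 1.50 and 4.78 with JQ1 and anti-PD-L1, 3.14 and 2.06 with JQ1 and paclitaxel, and 2.63 and 1.73 with all 3 drugs. Both vehicle libraries lay above all treated ones, and Eno3 fell by 1.78 ± 0.41 (SE, adjusted p = 0.0433). Neither call held with relative depth as a covariate, nor did they hold with mouse codes averaged, and each was lost without either vehicle library or either library with JQ1 and paclitaxel.

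**Figure D3:**
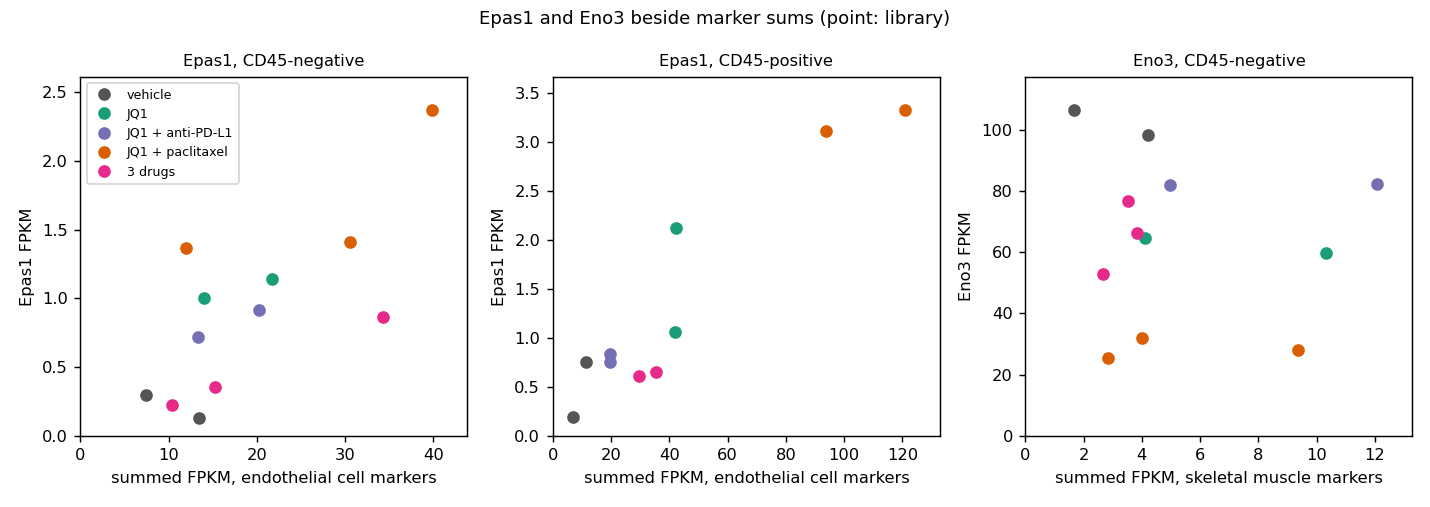
FPKM of Epas1 (both fractions) and Eno3 (CD45-negative) on the y axes against the summed FPKM of endothelial or skeletal muscle markers on the x axes, each point a library coloured by treatment. The CD45-positive libraries with JQ1 and paclitaxel have the highest Epas1 (3.11 and 3.33) and the highest endothelial sums (93.8 and 121), while Eno3 spans 25.6 to 106.5 FPKM at muscle sums of at most 12.1.

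The other 6 comparisons in the CD45-positive cells gave no call among the 34 genes by limma. Against vehicle, 1.04% of all tested genes were called with JQ1, 0.029% with JQ1 plus the antibody and 0.135% with all 3 drugs. The shares were 0.832% for the antibody added, 0.0387% for paclitaxel added and 0% for the interaction. At an unadjusted p under 0.05, JQ1 against vehicle gave 6 of the 34 genes, beside 19.7% of all tested genes. JQ1 plus the antibody gave 2 (7.11% of all tested genes) and all 3 drugs gave 3 (8.73%). The antibody added gave 6 (18.7%), paclitaxel added 2 (9.45%) and the interaction 6 (10.35%). Median differences of the 34 genes ran from -0.19 (JQ1 with paclitaxel, -0.09 over all genes) to 0.10 (antibody added, 0.01 over all genes). Egln1 read 17.3 and 5.08 FPKM with vehicle, 2.94 and 3.93 with JQ1, 4.01 and 5.47 with JQ1 and anti-PD-L1, 1.67 and 3.44 with JQ1 and paclitaxel, and 17.8 and 13.2 with all 3 drugs. Here vehicle replicate 1 and both 3-drug libraries were high, whereas in the CD45-negative cells it was vehicle replicate 2. Its interaction value was 1.87 ± 0.68 (SE, adjusted p = 0.433). Hif1a read 52.4 and 63.8 FPKM with vehicle, 46.5 and 48.3 with JQ1, 71 and 64.01 with JQ1 and anti-PD-L1, 42.6 and 58.3 with JQ1 and paclitaxel, and 62.5 and 47.7 with all 3 drugs, and Bnip3, the most abundant of the hypoxia-response genes outside glycolysis here, read 119 and 83.97 FPKM with vehicle, 53.5 and 145 with JQ1, 80.1 and 93.8 with JQ1 and anti-PD-L1, 121 and 76.9 with JQ1 and paclitaxel, and 85.5 and 117 with all 3 drugs. Both Hif1a values with JQ1 and anti-PD-L1 lay just above all others, and those with JQ1 lay below vehicle. The groups of Bnip3 overlapped. Slc2a3, a high-affinity glucose importer, ranged from 0.308 to 3.61 FPKM and Aldoc from 3.52 to 12.9, with both vehicle values of Aldoc (12.9 and 8.02) above the treated range, as in the other fraction.

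Both fractions were measured in 10 tumours, in separate tables, so their levels were set side by side with no test. In all 10 tumours 19 genes were lower in the CD45-positive cells, 3 were higher and 12 varied in direction. The same count was not made over all genes, so whether the set differs from other genes in this was not tested. The genes that were lower included Eno3 (median ratio CD45-positive to CD45-negative 0.0557), Adm (0.144), Pfkm (0.162), P4ha2 (0.174) and Vegfa (0.338), and Car9 was at 0.0719. The higher ones were Hif1a (1.40), Pfkfb3 (4.82) and Pfkfb4 (3.40). Slc2a3 was higher in 9 of the 10 (4.01). Aldoa (0.870), Eno1 (0.958) and Pfkp (1.09) were near parity.

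**Figure D4:**
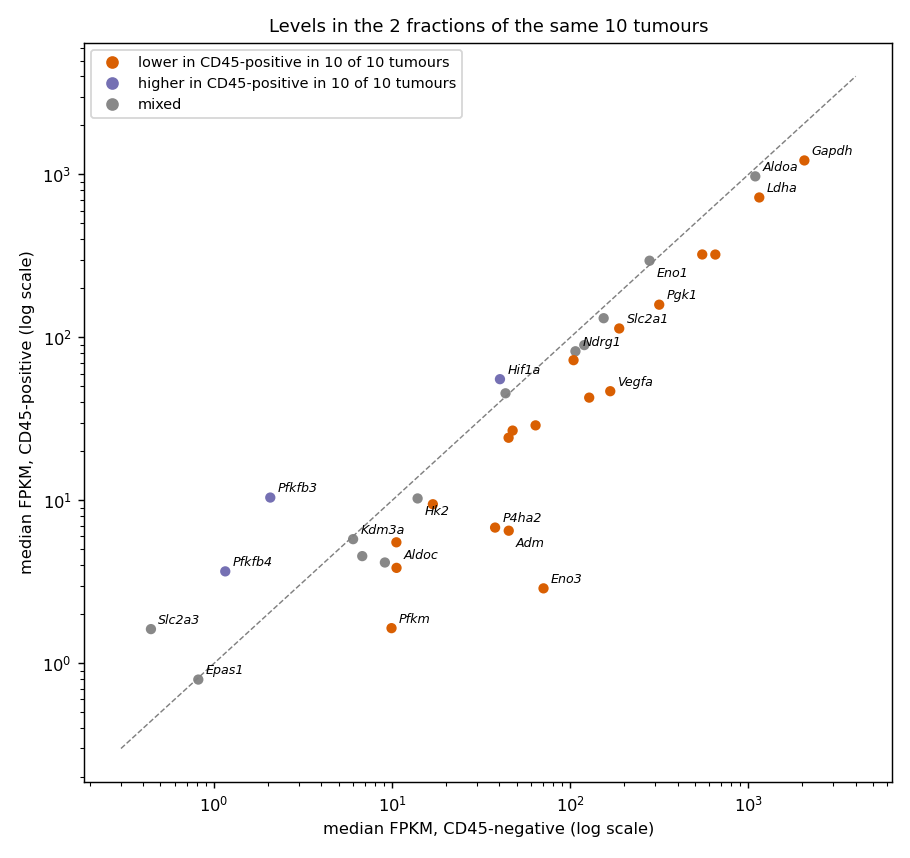
Median FPKM over the 10 tumours measured in both fractions, CD45-negative on the x axis and CD45-positive on the y axis (both log scales), each point 1 of the 34 genes, with equality dashed. Orange points (19 genes) were lower and purple points (3 genes) higher in the CD45-positive cells of all 10 tumours; Eno3 lies farthest below equality, at 70.7 and 2.88 FPKM.

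Genes of the same pathways outside the set were counted from 3 lists. Counts in each list are to be read beside the shares of all tested CD45-negative genes. With the antibody 14% of these were higher and 10.9% lower. With JQ1 and paclitaxel 5.29% were higher and 12.3% lower. With JQ1 14.8% were called, of which 9.68% lower. Of 37 tested genes known to respond to hypoxia, 9 rose and 5 fell with the antibody in the CD45-negative cells and their median difference was -0.06, beside 0.03 over all tested genes. The 3 with the smallest adjusted p were the placental growth factor Pgf (1.71, adjusted p = 0.000486), the collagen lysyl hydroxylase Plod2 (-0.91, adjusted p = 0.000679) and the lipase inhibitor Angptl4 (-0.92, adjusted p = 0.001). With JQ1 and paclitaxel 3 rose and 8 fell, led by the collagen hydroxylase subunit P4ha3 (-2.00, adjusted p = 0.000292), Angptl4 (1.48, adjusted p = 0.000745) and the glycogen synthase Gys1 (-0.73, adjusted p = 0.00736). With JQ1, 3 rose and 2 fell, led by Plod2 (1.17, adjusted p = 0.00379), P4ha3 (-1.36, adjusted p = 0.0057) and Insig2 (-0.77, adjusted p = 0.0304).

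Of 21 tested further genes of glycolysis and pyruvate use, 0 rose and 2 fell with the antibody: Pdhb (-0.41, adjusted p = 0.0149), a pyruvate dehydrogenase subunit, and G6pdx (-0.44, adjusted p = 0.0482), the entry enzyme of the pentose phosphate route. With JQ1, 0 rose and 2 fell, Pdk4 (-1.80, adjusted p = 0.00506) and Bpgm (-1.52, adjusted p = 0.00706). With JQ1 and paclitaxel 1 rose and 2 fell: Pgd (0.52, adjusted p = 0.0413), Bpgm (-1.25, adjusted p = 0.00981) and Pdk4 (-1.13, adjusted p = 0.0247). In both comparisons with a Bpgm call 2 of 3 tested erythroid markers fell as well, and their part in the Bpgm differences was not tested. Of 4 tested genes of oxygen sensing, 1 rose with JQ1 and paclitaxel, the asparaginyl hydroxylase Hif1an (0.77, adjusted p = 0.0297). In the CD45-positive cells, calls in these lists came from JQ1 with paclitaxel: of 38 hypoxia-responsive genes 3 rose, Angptl4 (2.82, adjusted p = 0.0181), Loxl2 (1.74, adjusted p = 0.0411) and Hmox1 (1.35, adjusted p = 0.021), and of 19 glycolysis and pyruvate genes Ldhb (-2.23, adjusted p = 0.022) fell. Of all tested CD45-positive genes 1.58% rose and 3.26% fell with JQ1 and paclitaxel. The other comparisons gave no call in the 3 lists by limma in either fraction.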

How the data were processed

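RNA was measured in 22 libraries of bead-separated CD45-negative (12) and CD45-positive (10) tumour cells, made with a low-input SMARTer kit, per the labels' protocols, and aligned with STAR 2.5.1b to mm9, per the submitters' processing notes. The labels carry the word Cuff for the tables, but which tool and version made the gene values is not given in the sources used here. Each fraction has 1 table. Before deposit the authors scaled the values to gene length and library size (FPKM), as read from the values, which have decimals; the labels speak of counts. Of 24353 symbols, 23458 matched mouse gene symbols. No per-sample column was left out (0 columns).

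FPKM hold no read totals, so relative depth was read from the steps of low values, and precision comes from replicate libraries (correlation of log2 values within groups 0.986 to 0.992 for CD45-negative, 0.974 to 0.988 for CD45-positive cells). The filter kept genes that reached 1 FPKM in 2 or more libraries (10780 and 10340). Per fraction, limma (3.58.1, R 4.3.3) with its trend option modelled log2(FPKM + 1) over the 5 groups, with 7 comparisons, two-sided, and Benjamini-Hochberg adjustment over all tested genes; a difference or rise is on this log2 scale. The script was tested on simulated data. No test was made between fractions. Values per library are given for genes called in a fraction and for the most abundant gene of each role; of each wider list, up to 3 called genes by smallest adjusted p are named. The genes, lists and tests were chosen with earlier results of these data known. Alternatives were a pseudocount of 0.1, no filter, median-of-ratios scaling, relative depth as a covariate, averaging by mouse code, and leaving out each library. Promoter sequences came from RefSeq, GRCm38.p6, a newer build than that of the alignment; no proteins were used here.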

Additional observations from a re-analysis of the deposited data

Results flagged for a closer look

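P4ha2 moved in opposite directions in the 2 fractions with JQ1 and paclitaxel against vehicle: the log2 difference was -1.01 in the CD45-negative and 0.69 in the CD45-positive cells, and in each fraction every treated library lay on its side of both vehicle libraries. In CD45-positive cells P4ha2 read 5.27 and 4.40 FPKM with vehicle and 10.3 and 6.80 with JQ1 and paclitaxel, and that difference did not pass the threshold. In that comparison 5 of 7 pericyte and smooth muscle, 2 of 8 fibroblast and 10 of 10 endothelial markers rose in the CD45-positive cells. Of all tested genes there 1.58% rose. In the CD45-negative cells 1 of 4 pericyte and smooth muscle and 2 of 10 fibroblast markers fell, beside 12.3% of all tested genes. The part of these cells in the P4ha2 differences was not tested. The difference between the fractions was not tested, since their tables are separate. P4ha2 with JQ1 alone also lay below vehicle in the CD45-negative cells (28.3 to 29.8 against 38.3 to 47.4 FPKM). In the CD45-positive cells it lay above vehicle (7.56 to 8.30 against 4.40 to 5.27 FPKM). Neither difference with JQ1 alone passed the threshold.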

How the results depend on the processing

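Counts of called genes depended most on treating tumours of 1 mouse code as separate samples. With 1 averaged value per mouse the CD45-negative counts were 0 for JQ1 (4 in the main analysis), 2 for JQ1 with paclitaxel (10), 3 for the antibody added (12) and 0 for paclitaxel added (1). For JQ1 the count was 2 with no filter and 1 with relative depth as a covariate. For all 3 drugs it was 0, instead of 1, under the pseudocount of 0.1, no filter, median-of-ratios scaling, depth as a covariate and averaging by mouse. In the CD45-positive cells the 2 calls for JQ1 with paclitaxel became 1 with a pseudocount of 0.1, 1 with no filter and 1 with median-of-ratios scaling, and 0 with depth as a covariate and 0 with averaging by mouse. The averaging leaves fewer samples and no filter leaves more genes tested; otherwise the cause was not tested.

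Leaving out each library in turn gave CD45-negative counts of 1 to 5 for JQ1, 0 to 1 for JQ1 with anti-PD-L1, 3 to 11 for JQ1 with paclitaxel, 0 to 3 for all 3 drugs, 6 to 12 for the antibody added, 0 to 3 for paclitaxel added and 0 to 0 for the interaction, and CD45-positive counts of 0 to 2 for JQ1 with paclitaxel and 0 to 0 for each other comparison. In all these fits Aldoc kept its call for JQ1, Aldoc, Eno3 and Adm theirs for JQ1 with paclitaxel, and Ndrg1, P4ha2, Slc16a3, Hk2, Pfkp and Eno3 theirs for the antibody; where a fit left 1 library in a group, that library was assumed to vary like the other groups. Of the 31 called results, Car9 included, 4 lost the threshold with a pseudocount of 0.1, 9 with no filter, 3 with median-of-ratios scaling, 9 with depth as a covariate and 26 with averaging by mouse, and no called result changed sign. Some medians of the genes did change sign. With median-of-ratios scaling that of paclitaxel added went from -0.01 to 0.04 in the CD45-negative cells. That of JQ1 with anti-PD-L1 went from -0.04 to 0.05 in the CD45-positive cells. There, depth as a covariate also turned the medians of JQ1 (-0.13 to 0.02), JQ1 with anti-PD-L1 (-0.04 to 0.34) and JQ1 with paclitaxel (-0.19 to 0.18). The last was the main median farthest from 0 in that fraction. Scaling moved the median of all genes by over 0.1 only for the CD45-positive interaction, from 0.16 to -0.00. No paired analysis was possible because the treatments compared within a fraction share no mouse code; the fractions share tumours but were set side by side without a test, and right or left side was not used as a block. Absolute depth is unknown, so no counting error could be given.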
